A study of Rattus norvegicus with 3 samples.

Results

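The levels of 10 genes of the neuronal cytoskeleton were followed through 3 single-cell libraries of rat cochlea. These genes were the stathmins Stmn1, Stmn2, Stmn3 and Stmn4, the neuronal intermediate filament genes Nefl, Nefm, Nefh and Prph, the tubulin gene Tubb3 and the microtubule-associated protein gene Map1a. These 10 members were taken by name from the 32623 genes of the deposited matrices, and all 10 had UMIs (unique molecular identifiers, each standing for 1 captured RNA molecule) in each library. Their Ensembl identifiers were ENSRNOG00000016810 (Stmn1), ENSRNOG00000011705 (Stmn2), ENSRNOG00000013657 (Stmn3), ENSRNOG00000053334 (Stmn4), ENSRNOG00000013658 (Nefl), ENSRNOG00000013916 (Nefm), ENSRNOG00000008716 (Nefh), ENSRNOG00000052880 (Prph), ENSRNOG00000017209 (Tubb3) and ENSRNOG00000014230 (Map1a).

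The libraries came from untreated Sprague-Dawley rats aged 1, 7 or 14 postnatal days, called P1, P7 and P14. Rats of each age were pooled into 1 library, and the sex was given as female and/or male. The tissue was the cochlear basal membrane after spiral ganglia, spiral ligament and vascular stria had been dissected away, and dead cells were removed with microbeads before capture. With 1 library per age, stage and library cannot be told apart and no test between stages is possible, so differences below are values of these libraries.

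Stathmins bind tubulin dimers and regulate how microtubules grow and shrink. Stmn1 is found in many dividing cells as well as in neurons, whereas Stmn2, Stmn3 and Stmn4 are known as neural members of the family. Neurofilaments are polymers of a light (Nefl), a medium (Nefm) and a heavy (Nefh) subunit that fill the axon and set its calibre, and in the inner ear they mark spiral ganglion neurons and their fibres. Peripherin (Prph) is an intermediate filament of peripheral neurons and a known marker of type II spiral ganglion neurons. Tubb3 is the neuronal beta-tubulin, and Map1a binds microtubules in mature axons and dendrites.

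After removal of barcodes with 500 genes or fewer or with 25% or more of their UMIs on mitochondrial genes, 13162 cells were kept at P1, 12664 at P7 and 5282 at P14. The median was 6679 UMIs per kept cell at P1, 6902.5 at P7 and 1614.5 at P14. Clustering without the members gave 26 clusters, which were named from marker genes, and 7 of them were left unnamed. The labels call the cells greater epithelial ridge cells, but epithelial markers such as Epcam led a cluster that held 2.14% of kept cells at P1, 1.84% at P7 and 1.00% at P14, and neuron-, glia-, endothelial-, mural-, stromal- and immune-like clusters were found beside it. Between 16 and 54 barcodes of kept cells were shared by each pair of libraries.

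The neuron-like cluster held 573 cells at P1, 34 at P7 and 19 at P14. At P1, these cells were deep, with a median of 23246 UMIs, and 196 of them (34.2%) had 5000 genes or more. Of the 573 P1 cells, 514 carried UMIs of at least 3 of 8 neuron markers (among them Snap25, Elavl3, Elavl4, Syt1 and Rbfox3), against 11 of 34 at P7 and 14 of 19 at P14. The summed level of the 7 glia markers in neuron-like cells was 952 CPM at P1, 7275 CPM at P7 and 11543 CPM at P14, where CPM is the UMIs of a gene scaled to a total of 1e+06 UMIs in those cells. Its part in the member levels was not tested. At P7, 1 cell with 40804 UMIs held 122 of the 249 Stmn2 UMIs and 140 of the 359 Stmn3 UMIs of the cluster. Many P7 values below are therefore given with it and also without it.

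In P1 neuron-like cells the stathmins came first. Stmn2 had 3294 CPM (95% exact Poisson interval 3263 to 3325, from 43723 UMIs), Stmn1 had 2847 CPM (2818 to 2876) and Stmn3 had 2016 CPM (1991 to 2040). Nefm, with 2008 CPM (1984 to 2033), could not be separated from Stmn3. Tubb3 followed with 1570 CPM, and Nefh had 1042 CPM, Prph 826 CPM, Nefl 789 CPM and Map1a 559 CPM. Stmn4 was the lowest member at 202 CPM (195 to 210). The 3′ chemistry counts 1 end of each molecule, so levels were compared between genes without a length term, and how well each 3′ end is annotated was not tested. All intervals and limits cover counting error only.

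All 10 members were at least 2-fold higher in P1 neuron-like cells than in all other P1 cells, where 13.0% of 8545 genes were (10 CPM added to each level). No member was 2-fold lower, against 9.91% of all genes. The log2 ratio was 6.32 for Stmn2, 6.18 for Stmn3, 6.13 for Tubb3, 5.88 for Nefm, 5.82 for Nefh, 5.34 for Nefl and 5.25 for Prph. Map1a, at 3.1, and Stmn1, at 1.82, were nearer to the other cells, and Stmn4 lay between at 4.18. The median of the members was 5.58 and that of all genes was -0.036. The neuron-like cells of P1 held 11.8% of all UMIs but 90.3% (Prph) to 94.4% (Tubb3) of the UMIs of these 8 genes, against 57.0% for Map1a and 32.3% for Stmn1.

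The same contrast was computed at the later ages. At P7, 9 of 10 members were at least 2-fold higher in the neuron-like cells (7.15% of all genes), and at P14, 9 of 10 (16.3%). None was 2-fold lower at either age, against 10.3% of all genes at P7 and 23.1% at P14, although 2 of 11 alternatives made Stmn1 2-fold lower at P14 (down to -2.40). Over the 3 libraries together, all 10 were higher and none was lower, against 11.6% and 12.2% of all genes. Stmn1 was the exception at both ages, with a log2 ratio of 0.69 at P7 and of -0.73 at P14. At P7 the 34 neuron-like cells held 27.2% of the Stmn2 UMIs and 34.2% of the Stmn3 UMIs of that library, while glia-like cells held 48.0% and 47.9%. The deepest of the 34 cells held 122 of their 249 Stmn2 UMIs and 140 of their 359 Stmn3 UMIs. At P14 the 19 neuron-like cells held 65.1% of the Stmn2 UMIs and 71.9% of the Stmn3 UMIs.

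**Figure D1:**
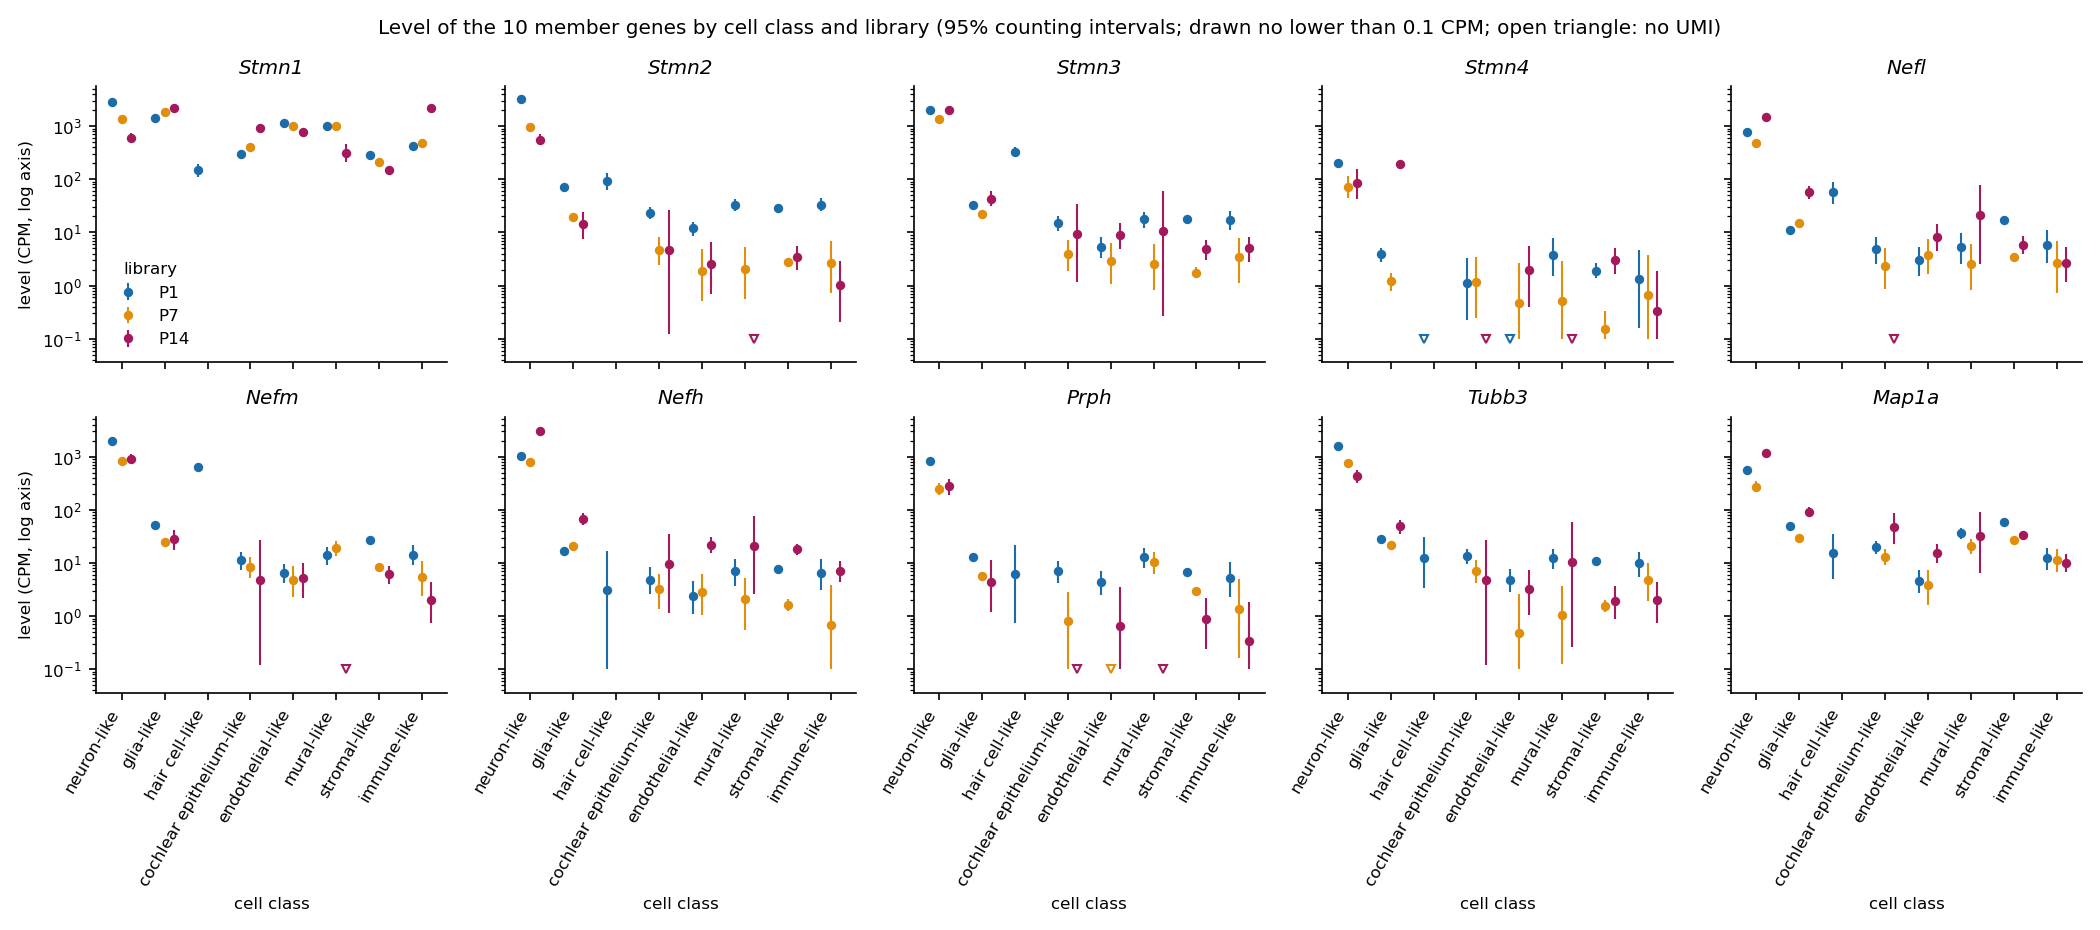
Level of each member (CPM, log axis) in 8 cell classes, with P1, P7 and P14 as separate colours and 95% exact Poisson intervals as bars. At P1 all 10 members sat highest in neuron-like cells, and Stmn1 was spread over the classes and was above 2000 CPM in glia-like and immune-like cells at P14.

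Free RNA in droplets gives UMIs in cells that do not make a gene. After every cell was thinned to 1000 UMIs, 88.2% of P1 neuron-like cells had a Stmn2 UMI (85.3 to 90.8%, 569 cells), and so had 3.14% of P1 stromal-like cells (2.53 to 3.85%), a class in which Stmn2 is not known to be made. Without thinning the shares were 98.8% and 17.2%, at median depths of 23246 and 6778 UMIs. The Stmn3 share was 76.8% in P1 neuron-like cells and 2.26% in stromal-like cells. At P7, where few neuron-like cells were found, the Stmn2 share of stromal-like cells was 0.273%. Ratios of members to Stmn2 were set side by side inside and outside the neuron-like cluster. In P1 cells outside it there were 0.573 Stmn3 UMIs (0.540 to 0.608) and 0.0537 Stmn4 UMIs (0.0457 to 0.0628) for each Stmn2 UMI. The neuron-like cells had 0.612, just outside the Stmn3 interval, and 0.0614, inside the Stmn4 interval. Nefh had 0.278 UMIs per Stmn2 UMI outside the cluster against 0.316 inside it, and Nefm 0.777 against 0.610. Further off were Nefl (0.312 against 0.239), Prph (0.382 against 0.251) and, most of all, Map1a (1.81 against 0.170) and Stmn1 (25.7 against 0.864). What part of the UMIs outside the cluster is free RNA was not tested.

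**Figure D2:**
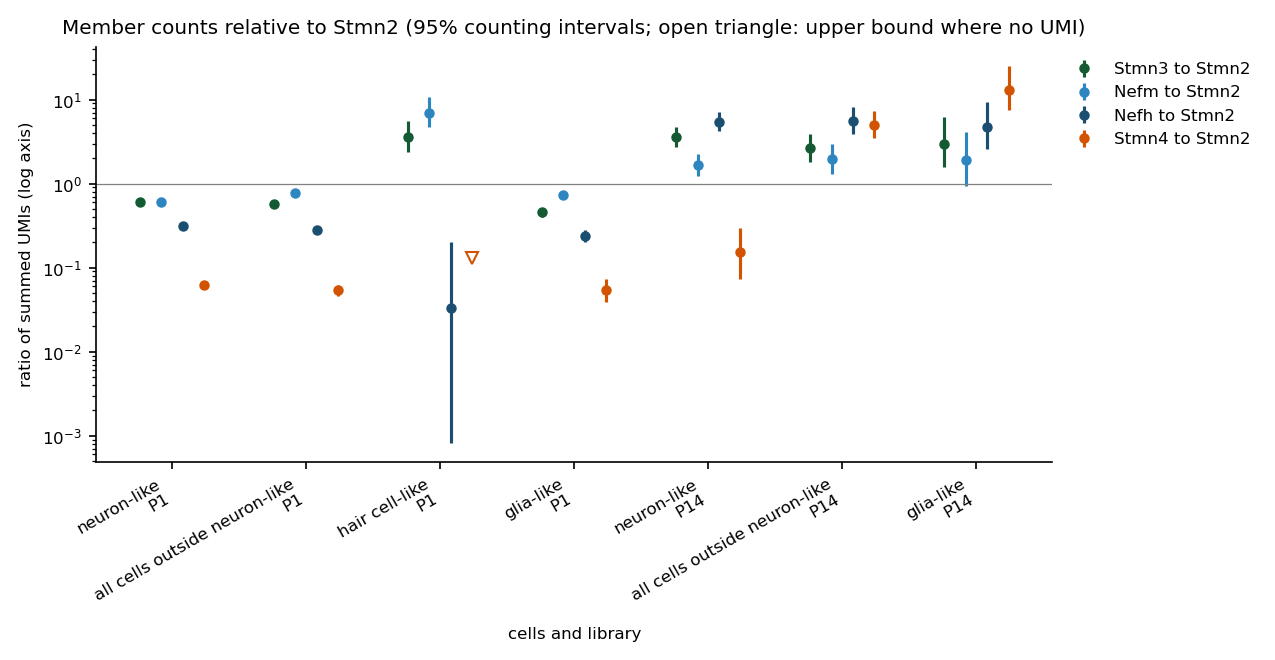
UMIs of Stmn3, Nefm, Nefh and Stmn4 for each Stmn2 UMI (log axis) in groups of P1 and P14 cells, with 95% intervals; the open triangle is an upper bound where Stmn4 had no UMI. P1 glia-like cells and all P1 cells outside the neuron-like cluster lie near the P1 neuron-like cells, whereas hair cell-like cells (7.00 Nefm per Stmn2) do not. P14 glia-like cells are far from P14 neuron-like cells in Stmn4 (13.2 per Stmn2), with 170 of 171 Stmn4 UMIs in 17 cells. They held 61 Nefh and 39 Stmn3 UMIs against 13 Stmn2 UMIs, and P14 neuron-like cells held 387 and 256 against 71.

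Between P1 and P14 the order of the members in neuron-like cells turned over. Nefh was first at P14, with 3043 CPM (2747 to 3362, 387 UMIs in 19 of 19 cells), followed by Stmn3 with 2013 CPM (1774 to 2275) and Nefl with 1486 CPM (1282 to 1714). Map1a (1187 CPM, 1005 to 1392) could not be separated from Nefl, nor from Nefm (920 CPM, 761 to 1103). Stmn1 (598 CPM, 471 to 748), Stmn2 (558 CPM, 436 to 704) and Tubb3 (432 CPM, 326 to 563) came next and had overlapping intervals. Prph had 275 CPM (192 to 383) and Stmn4 had 86.5 CPM (43.2 to 155).

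Against P1, 2 members were at least 2-fold higher at P14, Nefh (log2 ratio 1.54) and Map1a (1.07), a share near the 22.3% of all genes. A further 6 were at least 2-fold lower, where 16.4% of all genes were. These were Stmn2 (-2.54), Stmn1 (-2.23), Tubb3 (-1.84), Prph (-1.55), Stmn4 (-1.14) and Nefm (-1.12). Nefl (0.91) and Stmn3 (0.00) passed neither limit, and the median of all genes was 0.19. Nefl was just short of the limit, and 6 of 12 alternatives put it at least 2-fold higher (up to 1.34). The calls of Map1a, Nefm and Stmn4 were near the limit and ended under 1, 2 and 2 of 12 alternatives, with values of 0.71, -0.92 and -0.77 nearest to no change. The 19 cells limit what can be read here. The deepest P14 cell held 96 of the 387 Nefh UMIs and 79 of the 189 Nefl UMIs, and without it Nefh was at 2703 CPM and Nefl at 1022 CPM. In addition, 22 barcodes with UMIs of 3 or more neuron markers were left out at P14, 18 of them for their mitochondrial share, while 15 were kept. In the left-out group Nefh was at 1056 CPM (860 to 1283) and Stmn3 at 2425 CPM (2123 to 2758), against 3130 and 2288 CPM in the kept group, and Stmn2 was at 334 against 624 CPM.

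At P7 the levels in neuron-like cells were 1373 CPM for Stmn3, 1365 for Stmn1, 952 for Stmn2, 822 for Nefm, 807 for Nefh, 754 for Tubb3, 474 for Nefl, 272 for Map1a, 249 for Prph and 72.7 for Stmn4. Without the deepest cell Stmn1 was at 1178 CPM, Stmn3 at 993, Nefh at 829, Nefm at 662, Stmn2 at 576, Tubb3 at 530, Nefl at 367, Map1a at 286, Prph at 181 and Stmn4 at 49.9 CPM. The summed level of the 8 neuron markers in neuron-like cells was 2513 CPM at P1, 891 CPM at P7 and 3578 CPM at P14, and its part in the differences was not tested. Against P1, 7 members were at least 2-fold lower at P7 (10.9% of all genes) and no member was 2-fold higher (9.63% of all genes). Nefh (-0.37), Stmn3 (-0.55) and Nefl (-0.72) passed neither limit, although Stmn3 and Nefl passed it without the deepest cell (-1.01 and -1.08). The Map1a call (-1.01) ended without that cell (-0.94) and under 5 of 12 alternatives in all, where it reached -0.31. The calls of Stmn1 (3 of 12), Tubb3 (2), Stmn4 (1) and Nefm (1) also ended under some alternatives, and those of Stmn2 and Prph under none of the 12. Between P7 and P14, Map1a (2.09), Nefh (1.90) and Nefl (1.63) were at least 2-fold higher (22.8% of all genes) and Stmn1 (-1.18) was at least 2-fold lower (18.6% of all genes). The Stmn1 call ended without the deepest P7 cell (-0.97) and under 2 other alternatives, and the Nefh call ended with the mean CPM of each cell (0.90). Without the deepest P7 cell Stmn3 passed the limit from P7 to P14 (1.01, against 0.55 with it). Stmn2 was then at -0.04, against -0.76 with it.

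Shares of the UMIs of a gene family are free of the scaling between libraries. Among the UMIs of the 4 stathmins in neuron-like cells, Stmn3 made up 24.1% at P1, 36.5% at P7 and 61.8% at P14 (57.0 to 66.5%, 414 UMIs). Stmn2 went from 39.4% to 25.3% and 17.1%, and Stmn1 from 34.1% to 36.3% and 18.4%. Stmn4 stayed between 1.93% and 2.66%. Stmn2 was the most counted stathmin at P1 and Stmn3 at P14, while at P7 Stmn3 and Stmn1 were level. Without the deepest P7 cell, Stmn1 made up 42.1%, Stmn3 35.5% and Stmn2 20.6% at P7.

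Among the UMIs of Nefl, Nefm, Nefh, Prph and the related alpha-internexin gene Ina, Nefh made up 18.7% at P1, 29.3% at P7 and 47.8% at P14 (44.3 to 51.3%, 810 UMIs). Nefl went from 14.1% to 17.2% and 23.3%. Nefm had the largest share of the 5 genes at P1, with 35.9%, and was at 29.9% at P7 and 14.4% at P14, and Prph went from 14.8% to 9.03% and 4.32%. The heavy subunit thus replaced the medium one as the most counted filament gene at P14. Per Stmn2 UMI, neuron-like cells had 0.316 Nefh UMIs at P1, 0.847 at P7 and 5.45 (4.22 to 7.12) at P14. Without the deepest P7 cell the P7 ratio was 1.44, and Nefh made up 35.1% of filament UMIs there.

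**Figure D3:**
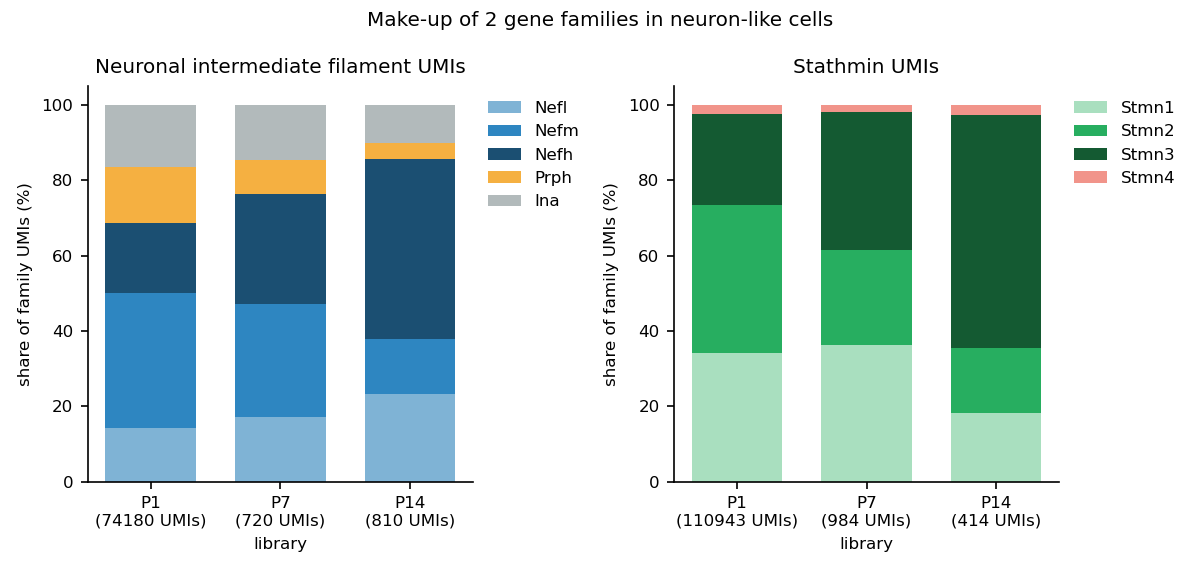
Share of family UMIs (%) taken by each neuronal intermediate filament gene (left) and each stathmin (right) in neuron-like cells of the P1, P7 and P14 libraries, with the total UMIs under each bar. Nefh grew from 18.7% to 47.8% of filament UMIs and Stmn3 from 24.1% to 61.8% of stathmin UMIs between the P1 and P14 libraries.

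Co-detection was counted after thinning to 1000 UMIs. P1 neuron-like cells had UMIs of 5.88 members on average, and 454 of 569 cells (79.8%, 76.3 to 83.0%) had 5 or more. The mean was 4.07 members in 30 P7 cells and 4.42 in 19 P14 cells. Glia-like cells had 0.79, 0.72 and 1.18 members at P1, P7 and P14, hair cell-like cells had 1.14 and all other named classes had at most 0.64. In P1 neuron-like cells, Stmn1 and Stmn2 were found together in 79.3% of cells, Stmn2 and Stmn3 in 71.2% and Stmn2 and Tubb3 in 64.9%. Of the 45 pairs, 37 were found together more often than the product of their single shares, with a median ratio of 1.05. The pair that exceeded the product most was Nefl with Prph (1.19, together in 23.7% of cells), and Stmn4 with Nefl was the lowest (0.90, 7.21% of cells). At 1000 UMIs per cell the members were thus mostly found together about as often as their separate shares give. Where single shares are high, as for Stmn1 (87.3%) and Stmn2 (88.2%), the ratio has little room above 1. For such pairs it cannot show whether the levels vary together.

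**Figure D4:**
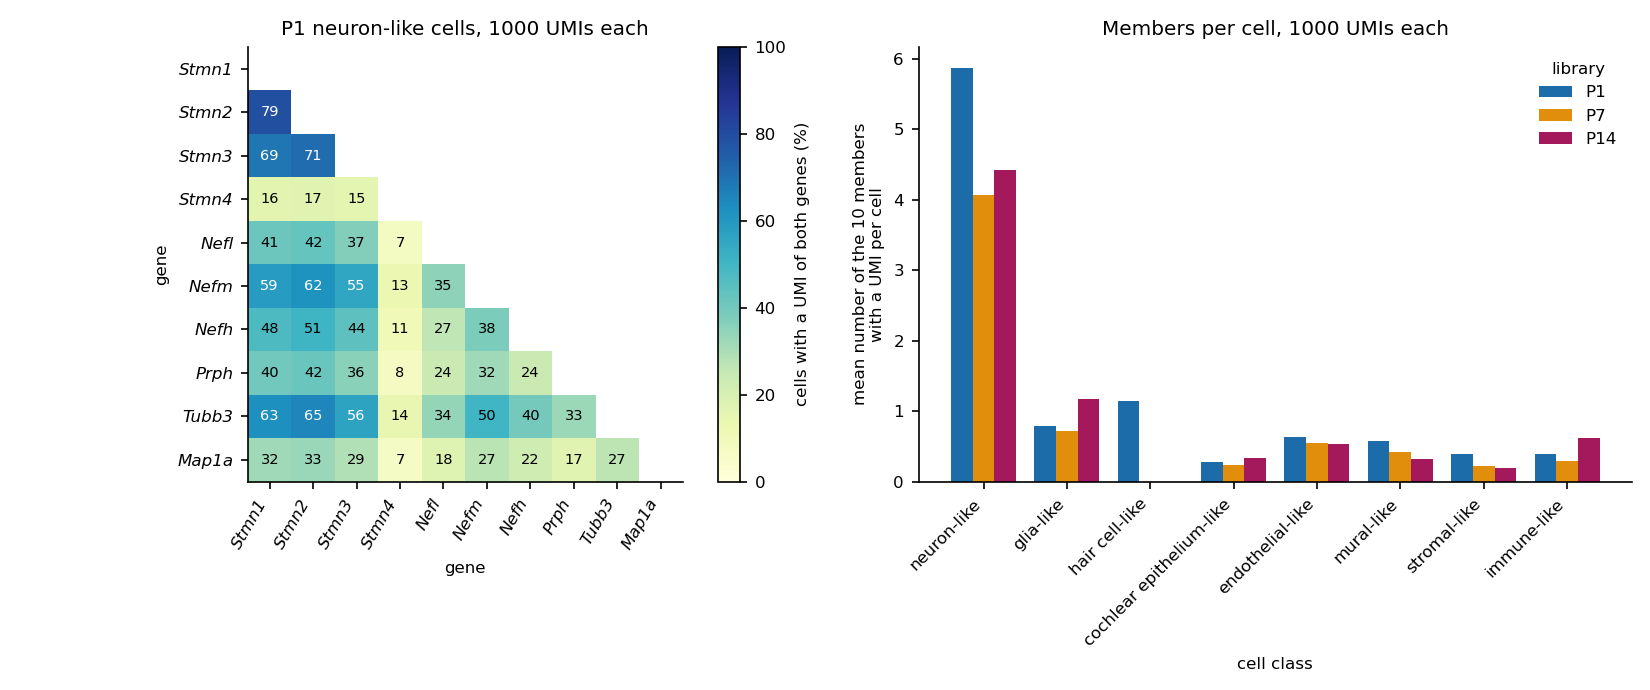
Left, percent of the 569 thinned P1 neuron-like cells with a UMI of both genes of each pair; right, mean number of the 10 members with a UMI per thinned cell in 8 classes and 3 libraries. The pairs of Stmn1, Stmn2, Stmn3 and Tubb3 reach 56 to 79% of cells, and P1 neuron-like cells carry 5.88 members on average.

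The depth of the P1 neuron-like cells let 506 of them be compared at 10000 UMIs each. Stmn2 was found at 33 UMIs in the median cell and between 17 and 48 UMIs from the 10th to the 90th percentile. Nefm was uneven, with a median of 14 UMIs, 4 to 39 UMIs between the same percentiles and 139 UMIs in the highest cell. Its variance was 14.5 times its mean, against 5.68 times for Stmn2 and 1.39 times for Stmn4. Prph also ranged widely, from 1 to 15.5 UMIs between these percentiles and up to 88 UMIs (variance 10.3 times the mean). Across these cells, which share 1 library and 1 depth, Spearman's rho was 0.70 for Nefl with Nefm, 0.54 for Stmn2 with Stmn3 and 0.52 for Stmn1 with Prph, and -0.34 for Stmn1 with Nefh. Nefh with Map1a had a rho of 0.46. So cells with many Stmn1 UMIs tended to have fewer Nefh UMIs, and the light and medium subunits varied together.

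The same 506 cells were set apart by genes known from spiral ganglion neuron subtypes. Cells with a UMI of Calb1 (56 cells) had 2.03 times the Nefm level and 1.64 times the Nefl level of the others. Cells with a UMI of Etv4 (64 cells) had 0.542 times the Nefh level and 1.52 times the Nefm level, and those with Gata3 (377 cells) had 1.69 times the Nefm level. Stmn2 was between 0.964 and 1.12 times in these 3 splits. Calb1 was listed as a type I marker, and other type I markers of the same list differed from it. The Nefm level was 0.793 times with Lypd1 (297 cells), 0.672 with Runx1 (179 cells), 0.834 with Ntng1 (93 cells) and 0.988 with Grm8 (70 cells). Prph was at 0.675, 0.682, 0.763 and 0.767 times with these markers, against 1.46 with Calb1. At 1000 UMIs per cell, the planned depth, the lower Nefm with Lypd1 and Runx1 was not seen. It was 1.09 times with Lypd1 (88 cells) and 0.995 with Runx1 (22 cells), and 1.44 with Gata3 (86 cells). Prph was 0.588 and 0.735 times with Lypd1 and Runx1 there. Calb1, Etv4, Ntng1 and Grm8 were found in fewer than 20 cells at that depth. Absence of a UMI does not show absence of the gene, and these ratios have no test.

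Hair cells, the sensory receptors of the cochlea, made up a cluster of 21 cells, all from P1. Nefm had 210 UMIs in 20 of the 21 cells, or 640 CPM (556 to 732), and Stmn3 had 109 UMIs in 20 of the 21 cells, or 332 CPM (273 to 401). Stmn2 was at 91.4 CPM (30 UMIs in 11 cells), Nefl at 57.9 CPM (19 UMIs) and Stmn1 at 149 CPM. Nefh had 1 UMI, Prph 2, Tubb3 4 and Map1a 5. Stmn4 had 0 UMIs, in cells where 3 UMIs would be 9.14 CPM. Against the P1 cells that were neither hair cell-like nor neuron-like, 4 members were at least 2-fold higher (16.3% of all genes), Nefm (log2 ratio 4.33), Stmn3 (3.67), Nefl (1.79) and Stmn2 (1.31). Stmn1 (-2.35) and Map1a (-1.40) were at least 2-fold lower (20.6% of all genes). The makeup differed from that of the neuron-like cells, with 7.00 Nefm UMIs (4.76 to 10.6) and 3.63 Stmn3 UMIs (2.41 to 5.64) per Stmn2 UMI, against 0.610 and 0.612 in P1 neuron-like cells. Hair cell-like cells thus carried Nefm and Stmn3 with 1 UMI of the heavy subunit, in ratios unlike the 0.777 and 0.573 of all P1 cells outside the neuron-like cluster.

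Glia-like cells held 1942 cells at P1, 3583 at P7 and 363 at P14. Different clusters led the class at each age, one led by Lgi4 and Gas7 at P1 (1161 cells), one by Sostdc1 and Pou3f1 at P7 (2253 cells) and one with Mt3 among its leading genes at P14 (332 cells). At P1 and P7 the members other than Stmn1 stayed at or below 70.8 CPM. Their P1 ratios to Stmn2 were 0.459 for Stmn3 (0.405 to 0.520), 0.732 for Nefm (0.657 to 0.815) and 0.241 for Nefh (0.205 to 0.282), somewhat off those of the neuron-like cells. From P1 to P7 no member was 2-fold higher (3.1% of all genes) and 1 was 2-fold lower (2.38% of all genes), Stmn2, with a log2 ratio of -1.46. From P1 to P14, 3 members were 2-fold higher (14.2% of all genes), Stmn4 (3.85), Nefl (1.66) and Nefh (1.52), and Stmn2 was 2-fold lower (-1.73; 11.3% of all genes). From P7 to P14, 4 members were 2-fold higher (11.1% of all genes) and none was lower (10.5% of all genes). These were Stmn4 (4.16), Nefl (1.41), Map1a (1.34) and Nefh (1.31). Stmn1 passed the limit only without the dividing glia-like clusters (1.56 from P1 to P14 and 1.28 from P7 to P14). The Map1a call ended with the mean CPM of each cell and without the 17 cells described next (0.52), and the Nefh call ended at a mitochondrial share under 10% (0.48). P14 glia-like cells held 61 Nefh, 51 Nefl and 39 Stmn3 UMIs against 13 Stmn2 UMIs. P14 neuron-like cells held 387, 189 and 256 against 71. Of the Nefh UMIs of the P14 library, 64.6% lay in neuron-like and 10.2% in glia-like cells. What part of the Nefl and Nefh values of glia-like cells is free RNA was not tested.

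The Stmn4 level of P14 glia-like cells, 189 CPM (162 to 220), rested on few cells. Of its 171 UMIs, 170 lay in 17 cells that carried UMIs of at least 3 of the genes Mog, Mobp, Hapln2, Ermn and Olig1, which are known from the myelin-forming cells of the central nervous system. The gene list and the split were chosen after the values were seen. In those 17 cells Stmn4 was at 1786 CPM (1528 to 2076), Stmn1 at 3898 CPM and Map1a at 462 CPM, while Stmn2, Nefl, Nefm, Nefh and Prph had 0 UMIs, which allows up to 31.5 CPM each. The other 346 glia-like cells of P14 had 1.24 CPM of Stmn4 (1 UMI) and 47.1 CPM of Map1a. Without the 17 cells the log2 ratio of Stmn4 from P1 to P14 was -0.30, and Nefl (1.80) and Nefh (1.66) were still 2-fold higher. No P1 or P7 cell carried 3 of these genes, and 2 stromal-like cells of P14 did. Most Stmn4 UMIs thus lay in neuron-like cells at P1 (94.2%) and in these 17 cells at P14.

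Stmn1 behaved unlike the other members. At P1 it was highest in neuron-like cells (2847 CPM), followed by glia-like (1437), endothelial-like (1157), mural-like (1007), immune-like (420), cochlear epithelium-like (294), stromal-like (285) and hair cell-like cells (149). At P14 glia-like (2222 CPM, 2126 to 2322) and immune-like cells (2194 CPM, 2141 to 2248) were highest and could not be separated. Cochlear epithelium-like (905 CPM) and endothelial-like cells (765 CPM) were also above the neuron-like cells (598 CPM). Across 33 combinations of class and stage the genes most like Stmn1 were the mitotic genes Nusap1 (Pearson's r 0.74), Ckap5 (0.73) and Ska3 (0.73), points that share libraries and classes.

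Cells were next divided by their UMIs of 10 proliferation genes (Aurkb, Birc5, Ccna2, Ccnb1, Cdk1, Cenpf, Mki67, Nusap1, Top2a and Ube2c), after thinning to 1000 UMIs. In P1 glia-like cells Stmn1 was at 681 CPM (641 to 722) in 1611 cells with 0 such UMIs and at 3960 CPM (3705 to 4228) in 226 cells with 2 or more. In P7 glia-like cells the levels were 868 and 4640 CPM, in P1 mural-like cells 526 and 3818 CPM and in P14 immune-like cells 612 and 4179 CPM. Cells with 2 or more such UMIs had 5.34 to 8.65 times the Stmn1 level of cells with 0 in the glia-like and mural-like classes of P1 and P7 and the immune-like class of P14. The ratio was 4.55 in endothelial-like cells of P1, 3.82 in those of P7 and 2.85 in stromal-like cells of P14. P1 neuron-like cells were different in level, with 2555 CPM in 497 cells with 0 such UMIs and 3242 CPM in 33 cells with 2 or more, or 1.27 times. In P14 glia-like cells Stmn1 was at 2350 CPM (2180 to 2529) in 303 cells with 0 such UMIs. High Stmn1 was therefore found with proliferation genes in 4 classes and without them in P1 neuron-like and P14 glia-like cells. A count of UMIs per cell is a range and not a cell type, and 1 UMI can come from free RNA.

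**Figure D5:**
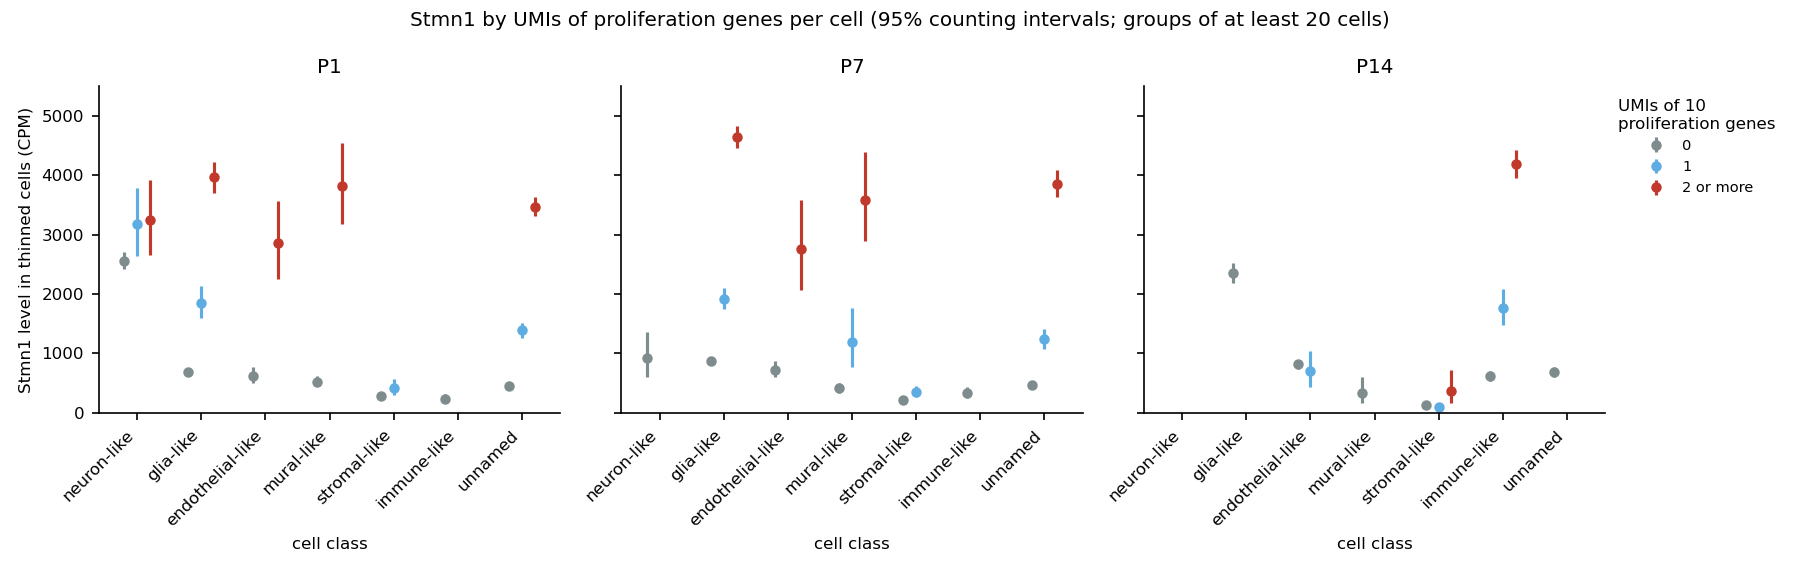
Stmn1 level (CPM, linear axis) in thinned cells with 0, 1 and 2 or more UMIs of 10 proliferation genes, by class and library, with 95% exact Poisson intervals, for groups of at least 20 cells. In glia-like, endothelial-like and mural-like cells at P1 and P7 and in immune-like cells at P14 the cells with 2 or more UMIs lie far above those with 0, whereas P1 neuron-like cells run from 2555 CPM with 0 UMIs to 3242 CPM with 2 or more.

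The promoter of Stmn1 is shown beside those of Tubb3, Stmn3 and Prph, since these members parted in where they were found. The sequences are the 250 bases before the start of each gene in RefSeq (rat GRCr8), which held 5 of the 10 members; Map1a is the fifth, and Stmn2, Stmn4, Nefl, Nefm and Nefh were not in that table. The letters searched on both strands were the E2F-type motif TTTGGCGC, the E-box CACGTG, the CCAAT box (CCAAT), the TATA-type motif TATAA and the GC box GGGCGG, chosen after the Stmn1 promoter had been seen. Matches are in capitals, and where the match is on the other strand the capitals spell its reverse complement. Stmn1 lies at chr5:151964929-151965178 (plus strand), Tubb3 at chr19:68365437-68365686 (plus strand), Stmn3 at chr3:188802495-188802744 (minus strand) and Prph at chr7:132097039-132097288 (plus strand).
Stmn1: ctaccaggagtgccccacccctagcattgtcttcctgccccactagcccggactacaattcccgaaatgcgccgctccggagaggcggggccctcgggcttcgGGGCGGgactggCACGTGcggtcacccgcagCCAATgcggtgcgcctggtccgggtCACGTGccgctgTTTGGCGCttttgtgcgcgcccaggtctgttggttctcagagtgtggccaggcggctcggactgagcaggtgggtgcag
Tubb3: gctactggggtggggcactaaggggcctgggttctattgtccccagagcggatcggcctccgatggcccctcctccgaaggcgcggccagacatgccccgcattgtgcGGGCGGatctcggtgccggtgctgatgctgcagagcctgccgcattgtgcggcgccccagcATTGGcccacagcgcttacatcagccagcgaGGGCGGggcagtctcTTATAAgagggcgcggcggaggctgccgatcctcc
Stmn3: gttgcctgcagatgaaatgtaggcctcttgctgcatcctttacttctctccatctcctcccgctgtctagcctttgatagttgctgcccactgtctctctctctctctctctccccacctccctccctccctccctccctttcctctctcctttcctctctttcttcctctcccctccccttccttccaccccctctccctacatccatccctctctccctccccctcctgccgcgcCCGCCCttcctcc
Prph: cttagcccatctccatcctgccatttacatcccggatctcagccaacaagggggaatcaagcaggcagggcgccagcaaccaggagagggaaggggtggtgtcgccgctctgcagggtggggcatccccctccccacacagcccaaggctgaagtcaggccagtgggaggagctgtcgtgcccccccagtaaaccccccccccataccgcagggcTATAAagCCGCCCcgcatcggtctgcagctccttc
Stmn1 was the one of the 5 with TTTGGCGC, 79 bases before the start, letters that 0.412% of 33469 promoters hold in such a window. It also had CACGTG 135 and 91 bases before the start (5.59% of promoters) and CCAAT at 116 bases (34.0%). Tubb3 had TATAA at 34 and, on the opposite strand and overlapping it, at 35 bases, and Prph had it at 35 bases (24.0% of promoters), while neither Stmn1, Stmn3 nor Map1a had it. All 5 held GGGCGG on at least 1 strand (30.5% of promoters). A match is a description of letters and no evidence that a factor binds.

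Further cytoskeletal genes were read from 5 lists. In P1 neuron-like cells against all other P1 cells, 8 of 12 tubulins were at least 2-fold higher and 2 lower, with a median log2 ratio of 1.21, against -0.036 for all genes. Tubb2b (3.82), Tubb4a (3.69) and Tubb2a (3.59) led, and Tubb6 (-1.54) and Tuba1c (-1.47) were lowest. Of 14 microtubule-associated genes tested, 9 were higher and none was lower (median 1.53), led by Mapt (5.59), which encodes tau, Map1b (3.89) and Map2 (2.81). Of 15 growth cone and axon outgrowth genes, 10 were higher and 1 was lower (median 1.90), led by Crmp1 (4.73), Dcx (4.20) and Dpysl3 (3.46), with Atf3 at -1.10. Of 10 axon scaffold genes, 8 were higher (median 1.67), with the ankyrin genes Ank3 (2.29) and Ank2 (2.13) among the highest. Other intermediate filaments and lamins had 1 of 7 higher, Ina (5.69), and 1 lower, Nes (-1.37), with a median of -0.76. The medians of 4 lists thus lay above that of all genes, and that of the other filaments lay below it.

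In neuron-like cells of P14 against P1, the growth cone list had 0 of 14 genes higher and 9 lower, with a median of -2.18 against 0.19 for all genes, of which 16.4% were lower. Its lowest were Dpysl3 (-4.89, 0 UMIs at P14 and 3813 at P1), Basp1 (-4.15) and Gap43 (-3.98), the last the classical growth cone protein. Among 12 tubulins 6 were lower and 1 was higher (median -1.04), with Tubb2b at -5.50, Tuba1a at -2.59 and Tubb5 at -2.11, and Tuba8 at 1.49. Of 14 microtubule-associated genes 3 were lower, among them Mapt (-2.15), and 1 was higher, Mapre3 (1.40; median -0.44). In the axon scaffold list 3 of 10 were higher, Sptbn4 (1.86), Epb41l3 (1.72) and Plec (1.31), and 1 was lower, Sptbn1 (-1.75; median 0.33), shares near the 22.3% and 16.4% of all genes. Among the other filament and lamin genes 3 of 6 were lower, including Vim (-2.79), and Synm (1.89) was higher. Other classes were also compared. The growth cone median was negative in cochlear epithelium-like (-1.499), glia-like (-1.31), endothelial-like (-1.06), stromal-like (-0.82), immune-like (-0.799) and mural-like cells (-0.72). The tubulin median was -1.46 in mural-like, -1.198 in endothelial-like, -1.19 in immune-like and -1.03 in glia-like cells. It was -0.16 in cochlear epithelium-like and 0.13 in stromal-like cells. What part of the fall is neuron-specific was not tested.

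The genes whose levels followed the members most closely over the 33 combinations of class and stage were mostly of neurons. Ina had an r of 0.96 with Stmn2 and 0.98 with Stmn3, whose other nearest genes were the secretory granule genes Chga and Chgb. Nefl was nearest to Sncb (0.97), Eef1a2 and Cplx1, and Nefh to Cend1 (0.96), Eef1a2 and Kif5a, the last a motor of axonal transport. Nefm was nearest to Stmn3 (0.97), Chga and Ina. Prph was nearest to Elavl2 (0.96), Rab6b and Rbfox1, Tubb3 to Ttc9b (0.97), Elavl3 and Kif5a, and Stmn4 to Elavl3 (0.91), Vamp1 and Syt11. Cplx2 (0.87) and Gprasp1 (0.82) were among the 3 nearest to Map1a. The points share libraries, and 3 of the 33 are neuron-like.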

How the data were processed

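Single-cell RNA was measured by 10x 3′ chemistry (v3) in 3 rat cochlear libraries, 1 each at P1, P7 and P14. The deposited matrices hold raw UMI counts per gene and barcode, made by the authors with Cell Ranger (version 3.1.0 per the file headers) on rn6. The submitters' processing notes also name bcl2fastq and Seurat 3.1.1. The annotation and the rule for calling cells were not given in the sources used here. Library totals were 114285848 (P1), 101264868 (P7) and 12616390 UMIs (P14), so P14 levels are the least precise.

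Barcodes with more than 500 genes and under 25% mitochondrial UMIs were kept, with no upper limit on genes. Cells were clustered in Seurat 5.3.0 (R 4.3.3; 2000 variable genes without 76 member and cytoskeleton genes, 10 principal components, resolution 0.8). Clusters were named from marker lists by a rule made after the clusters were seen, which needed 3 markers of 1 class at least 2-fold above all other cells and 2 more than any other class had. Scrublet (scanpy 1.11.5) marked 4.85%, 6.14% and 0.0379% of cells at P1, P7 and P14. It did not work at P14, and no cell was removed.

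UMIs were summed per class and library and scaled to CPM. Log2 ratios had 10 CPM added, genes needed 10 CPM in either group, groups needed 20 cells (15 for P14 neuron-like cells), and a gene was called past a 2-fold limit. Intervals are exact Poisson for levels and Clopper-Pearson for shares (Python 3.11.15, scipy 1.17.1), and cover counting error only. With 1 library per group no test was made. Ratios were checked on simulated counts. RefSeq lists stathmin-like pseudogenes, so reads of the stathmins could be split among copies. The named genes were the 10 members, the 3 genes most like each by Pearson correlation and the 3 highest and 3 lowest genes of each list, of which the text gives a part. Members and lists were chosen with earlier results of these data known. A few genes that these rules name are not reported here.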

Additional observations from a re-analysis of the deposited data

Results flagged for a closer look

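With 1 library per stage, none of the following differences was tested. The log2 ratio of Stmn1 between neuron-like and other cells was 1.82 at P1 and 0.69 at P7 but -0.73 at P14, so its direction was opposite in the P14 library. From P1 to P14, Stmn1 also moved in opposite directions in the neuron-like (-2.23) and glia-like cells (0.63). Without the dividing glia-like clusters, an alternative added after seeing the data, the glia-like ratio was 1.56. Stmn4 was lower in the neuron-like cells (-1.14) and higher in the glia-like cells (3.85), where the ratio was -0.30 without the 17 cells that carried genes of central myelin. Tubb3 was lower in neuron-like cells from P1 to P14 (-1.84) and from P7 to P14 (-0.79), and in glia-like cells its ratios were 0.63 and 0.88.

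The filter left out 906 barcodes of P1, 1837 of P7 and 1076 of P14, which also held member UMIs. In the left-out barcodes of P1 and of P7, 6 members each, and in those of P14, 7 members, lay above their level in the kept cells by more than the counting error. Stmn3 was at 325 CPM (289 to 363) in the left-out P14 barcodes, against 30.5 CPM in the kept cells. At P14 Nefh was at 150 against 51.3 CPM, and at P1 at 345 against 131 CPM. At least 3 neuron markers were found in 50 such barcodes of P1, 6 of P7 and 22 of P14, of which 50, 6 and 18 had 25% or more of their UMIs on mitochondrial genes. Kept barcodes with 3 or more neuron markers numbered 535 at P1, 35 at P7 and 15 at P14. The part of the filter in the differences between stages was not tested.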

How the results depend on the processing

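No paired analysis was possible because each stage had 1 library, and for the same reason no library could be left out within a group. Among the results on counts, levels and shares, 117 of 137 alternatives stayed, 20 moved and 0 reversed. Staying meant within the error or within 1.5 times of the reported value. For co-detection it meant only a median ratio on the same side of 1. Of 1240 alternatives for single members 883 stayed, 356 moved and 1 reversed. The cause was not tested for any of them. The members past 2-fold between P1 and P7 in neuron-like cells were 4 in place of 7 with the mean of the CPM of each cell and also in neuron-like cells with 3 or more neuron markers (added after seeing the data). In glia-like cells the same count was 1, and it was 3 with 1 CPM added, 5 at resolution 1.2 and 2 without the dividing clusters (added). From P7 to P14 it was 8 in place of 4 in neurons chosen by 3 or more markers without clustering, and 2 in place of 4 in glia-like cells without the 17 myelin-gene cells (added), where the ratio of Stmn4 from P1 to P14 reversed to -0.30. At resolution 1.2 fewer than 5 P7 cells were neuron-like, so the P7 neuron-like values could not be checked at that setting. The share of P1 neuron-like cells with 5 or more members was 46.1% at 500 UMIs, 96.0% at 3000 UMIs and 76.1% under 5000 genes, against 79.8%, and the median share of cells with a member's UMI was 41.9% at 500 and 84.9% at 3000 UMIs, against 61.0%. Over all kept cells, the Stmn1 level with 2 or more proliferation UMIs was 6.72 (P1), 9.25 (P7) and 7.66 times (P14) that with 0. With 1 or more UMIs these were 5.03, 6.38 and 4.95, and without thinning 4.02, 6.81 and 4.83. By Spearman correlation 7 of the 30 genes most like a member remained. The median member level in P1 neuron-like cells was 1306 CPM and 1266 CPM as the mean over cells. The few neuron-like cells of P7 (34) and P14 (19) and the depth of P14 limit those levels.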

Other observations

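Outside neuron-like cells, Map1a was found in several clusters at ratios to Stmn2 unlike those of neuron-like cells. In the unnamed cluster led by Sp5 and Cav1 it was at 109 CPM (104 to 115) at P1 and 51.3 CPM (41.6 to 62.5) at P7, and at P1 it had 4.86 UMIs (4.29 to 5.52) per Stmn2 UMI, against 0.170 (0.165 to 0.174) in neuron-like cells. The unnamed cluster led by Aldh1a2 and Calb2 had 82.7 CPM (77.3 to 88.4) at P1 and 42.9 CPM at P7, with 3.97 Map1a UMIs (3.42 to 4.63) per Stmn2 UMI at P1. In stromal-like cells that ratio was 2.03 at P1, 9.97 at P7 and 9.50 at P14.

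Prph was off the neuron-like ratio in a few groups of P7. The Aldh1a2 and Calb2 cluster had 114 Prph UMIs there, or 13.5 CPM (11.1 to 16.2), against 16 Stmn2 UMIs, a ratio of 7.12 (4.20 to 12.9), where P7 neuron-like cells had 0.261 (0.196 to 0.344). A Prph UMI was found in 8.79% of its P7 cells, and no share in these cells was thinned. In the cluster led by Isyna1 and Col9a3 the P7 ratio was 11.2 (4.52 to 35.8), from 56 and 5 UMIs. Nefm had 9.25 UMIs (3.32 to 35.7) per Stmn2 UMI in P7 mural-like cells, from 37 and 4 UMIs, against 0.863 in P7 neuron-like cells. These groups were picked for their ratios.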
